A study of Mus musculus with 16 samples.

Results

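The genes described here are 10 granule and neutrophil-like genes that were read in monocytes sorted from mouse tumours: S100a8, S100a9, Lcn2, Hp, Mmp8, Cd177, Padi4, Lrg1, Wfdc21 and Retnlg. Each was found in the deposited expression matrix by its symbol, 10 of 10 members among 30819 genes. The members were chosen by their levels in monocytes and by how they differed there between genotypes, so those values are given as a description with no test. The knockout effect in macrophages and the variation among monocyte libraries of the same genotype were not named in that choice and were tested. Still, the members were chosen with earlier results of these data known, so these tests may not be independent of the choice. Ly6g, which encodes the surface protein used to sort neutrophils out, was read beside them.

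The libraries compare myeloid cells of tumours grown in hosts with and without C3, the central component of complement. C3 knockout mice (C3-/-) and C3 wild-type mice, both of the strain C57BL/6J, received MN/MCA1 sarcoma cells under the skin of the flank, and tumours were taken at day 21. The 4 groups of 4 libraries were monocytes of C3 knockout mice 6 to 9, monocytes of wild-type mice 1 to 4, macrophages of the same knockout mice and macrophages of the same wild-type mice. Monocytes were sorted as CD45+ CD11b+ Ly6G- CD11c- F4/80- Ly6C+ cells and macrophages as CD45+ CD11b+ Ly6G- CD11c- Ly6C- F4/80+ cells. All mice carried the same tumour line, only the host lacked C3, and the labels do not say whether the injected cells made C3. Each mouse gave both cell types, so the 16 libraries came from 8 animals.

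Neutrophils make their granule proteins in waves while they mature in the bone marrow, and store them for release at sites of infection or injury. Monocytes share part of this programme: calprotectin and some granule genes are also transcribed in Ly6C+ monocytes, and a neutrophil-like branch of mouse monocytes has been described beside a branch that resembles dendritic cells. Several of the 10 genes are also acute-phase genes, which cytokines of the interleukin-6 family and interleukin-1 induce in liver and myeloid cells.

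Values are given as normalized reads, the reads recovered from the deposited values divided by the size factor of the library, and differences as log2 differences on the deposited scale, with a standard error (SE) from limma. That scale draws low values together, so its differences understate changes of scarce transcripts. Libraries held 18689714 to 29044546 recovered reads. The targeted gene, C3, had 4925 ± 288 normalized reads in knockout monocytes and 15158 ± 718 in wild-type monocytes, and 1234 ± 168 in knockout macrophages and 4008 ± 858 in wild-type macrophages (SD, n = 4 each). C3 was lower in every knockout library of either cell type, at 0.325 times the wild-type mean in monocytes and 0.308 times in macrophages (limma, adjusted p = 8.81e-08 in monocytes and 0.000215 in macrophages), and reads of it remained in all of them. Summed normalized reads of 6 Ly6C monocyte markers ran from 84768 to 104074 in knockout monocytes and from 88067 to 98805 in wild-type monocytes, against 10054 to 19008 in all macrophages. Those of 6 macrophage markers ran from 26672 to 45351 in all monocytes, against 278698 to 336613 in all macrophages.

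The monocyte libraries of knockout mice 7 and 8 stood apart from the others. Ltf, Camp and Ngp, which encode proteins of the secondary granules of neutrophils, summed to 6440 normalized reads in knockout mouse 7 and 4940 in knockout mouse 8. The same sum was 7.51 in knockout mouse 6, 6.5 in knockout mouse 9 and 5.64 to 17.4 in wild-type monocytes. The high values of these 3 genes are approximate: the recovered mean of Ngp over all libraries was 456.4, against a deposited base mean of 127.5. Ngp alone had 1.88, 4220, 3074 and 0 normalized reads in the monocytes of knockout mice 6, 7, 8 and 9, against 3.71, 0, 0 and 0 in those of wild-type mice 1, 2, 3 and 4. Among other granule genes, Chil1 had 0, 26.5, 20.3 and 0 normalized reads in knockout mice 6 to 9, against at most 2.57 in wild-type mice, and Mmp9 had 228, 2839, 1171 and 638, against 524 to 953. Not all genes of secondary granules did so. Pglyrp1 had 734, 660, 583 and 583 in knockout mice 6 to 9, and Olfm4 averaged 0.203 in knockout monocytes. The other 7 neutrophil markers found in the matrix, Ly6g among them, summed to 261, 335, 148 and 184 in knockout mice 6 to 9 and to 528 to 728 in wild-type mice, of which Prtn3 alone made up 213, 219, 118 and 150 in the knockout. Ly6g had 7 reads in all over the knockout monocyte libraries and 4 over the wild-type ones, and it had 0 over the knockout macrophage libraries and 2 over the wild-type ones. No library of either cell type had more than 3 Ly6g reads. Results that rest on knockout mice 7 and 8 are given with and without them, and the part of these granule transcripts in them was not tested.

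**Figure D1:**
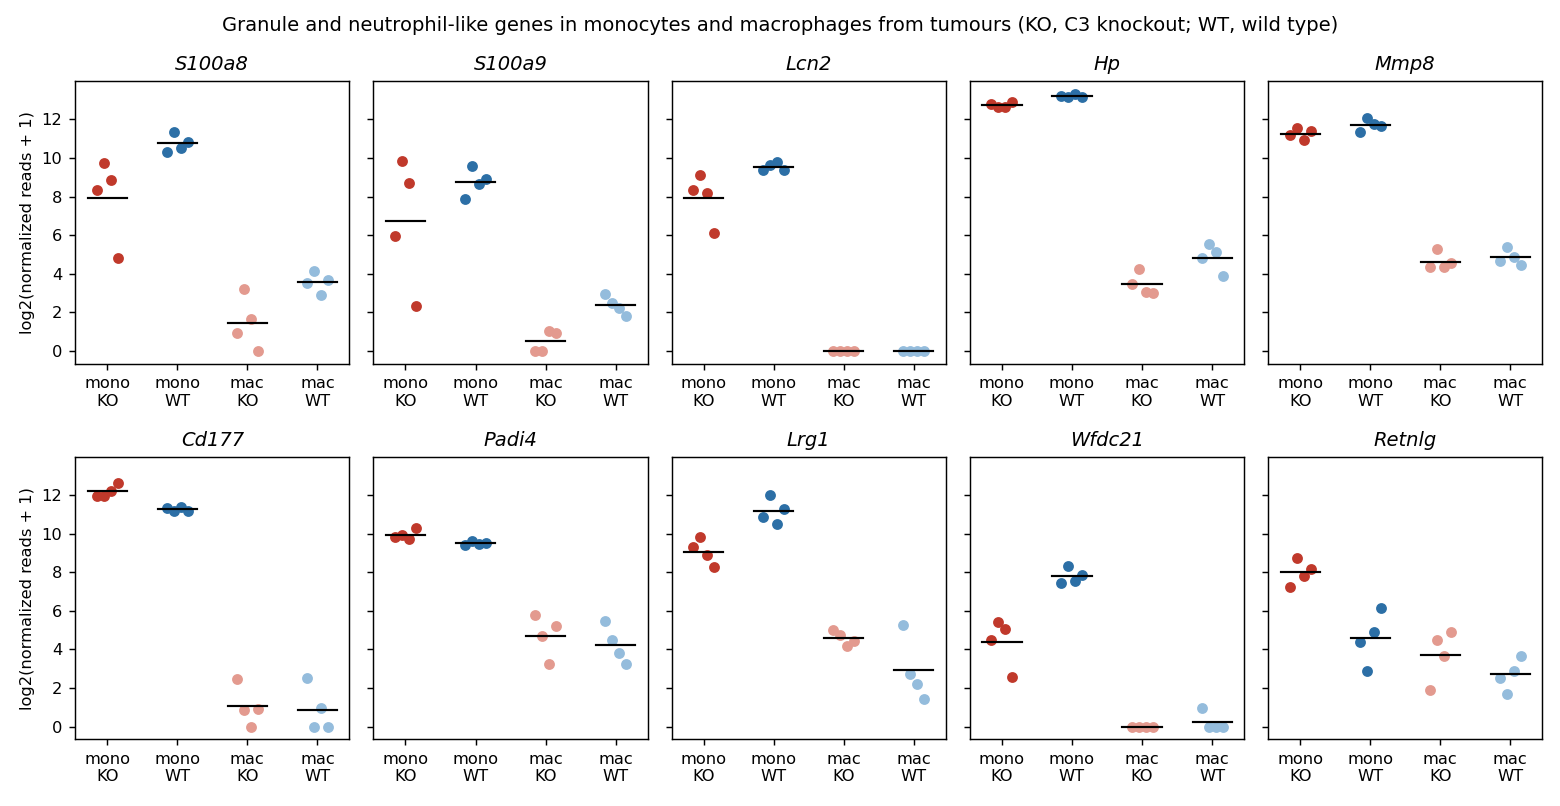
Normalized reads of the 10 genes in each library, as log2(normalized reads + 1), in monocytes (mono) and macrophages (mac) of C3 knockout (KO) and wild-type (WT) mice. Points are mice and lines are group means of the 4 points. Every gene had its highest values in monocytes, S100a8 and S100a9 spread most among the KO monocyte libraries, and Retnlg and Cd177 were higher in KO than in WT monocytes.

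S100a8 and S100a9 encode the subunits of calprotectin, a protein that binds calcium, zinc and manganese and is abundant in the cytosol of neutrophils. They lie 22596 bases apart on chromosome 3 (GRCm38, GENCODE M21; S100a8 at chr3:90668978-90670035 on the plus strand, S100a9 at chr3:90692632-90695721 on the minus strand). S100a8 had 319, 856, 465 and 27.6 normalized reads in the monocytes of knockout mice 6, 7, 8 and 9, against 1289, 2560, 1477 and 1802 in those of wild-type mice 1, 2, 3 and 4. The genotypes did not overlap, and knockout mouse 9 was the lowest. The mean was 0.234 times that of wild type, a log2 difference of -2.16 ± 0.73 (SE). In these bulk libraries, fewer cells that express a gene and less RNA of it per cell cannot be told apart. S100a9 had 60.1, 928, 414 and 4.06 normalized reads in knockout mice 6 to 9, against 235, 755, 401 and 474 in wild-type mice 1 to 4. Here the genotypes overlapped: knockout mouse 7 was above every wild-type library, knockout mouse 8 lay among them, and knockout mice 6 and 9 were below all of them. The log2 difference of S100a9 was -1.36 ± 1.09.

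The size of both differences depended on single knockout libraries. Without knockout mouse 9 alone, the log2 difference was -1.43 for S100a8 and -0.43 for S100a9, and the authors' deposited table gives -0.41 for S100a9. Without knockout mouse 7 alone it was -2.12 for S100a9. Without knockout mice 7 and 8, S100a8 averaged 174 normalized reads in the monocytes of knockout mice 6 and 9 and 1782 in wild-type monocytes, 0.0974 times the wild-type mean, with a log2 difference of -3.14 ± 0.58. S100a9 then averaged 32.1 in knockout mice and 466 in wild-type mice, 0.0688 times the wild-type mean in place of 0.754, with a log2 difference of -3.16 ± 0.55 and no overlap. The ratio of S100a8 to S100a9 normalized reads was 5.31, 0.922, 1.12 and 6.8 in the monocytes of knockout mice 6, 7, 8 and 9, and 5.49, 3.39, 3.68 and 3.8 in those of wild-type mice 1, 2, 3 and 4. The libraries with nearly equal reads of both genes were thus the same as those with high Ltf, Camp and Ngp. The part of those transcripts in the ratio was not tested.

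**Figure D2:**
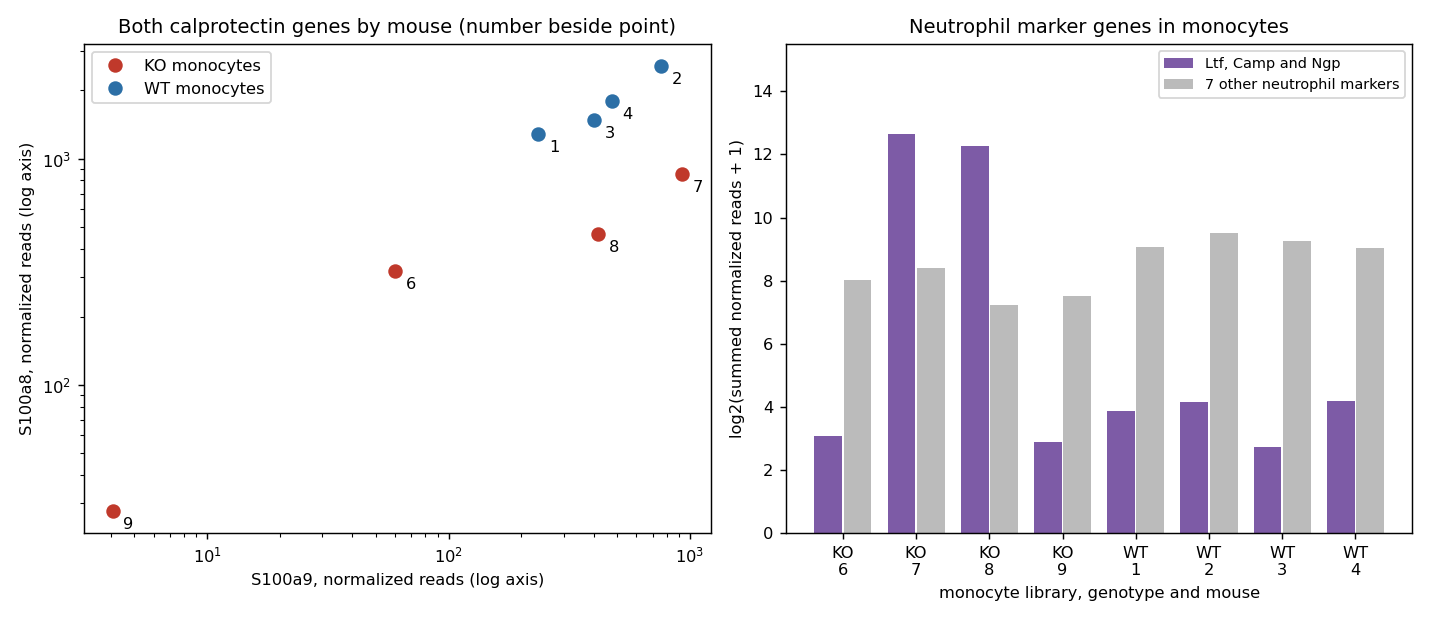
Left, normalized reads of S100a8 against S100a9 in the 8 monocyte libraries (both axes logarithmic, mouse numbers beside the points). Right, summed normalized reads of Ltf, Camp and Ngp and of 7 other neutrophil markers as log2(sum + 1). KO mice 7 and 8 have more S100a9 for their S100a8 than the other libraries, with S100a8 to S100a9 ratios of 0.922 and 1.12. Their Ltf, Camp and Ngp sums, 6440 and 4940, are approximate.

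Of the secreted and acute-phase proteins, 4 were lower in knockout monocytes without overlap of the genotypes. Lcn2 (chr2:32384633-32388252, minus strand) encodes lipocalin 2, which binds bacterial siderophores. It had 322, 552, 289 and 68.2 normalized reads in knockout mice 6 to 9, against 661, 806, 875 and 656 in wild-type mice 1 to 4. Its mean was 0.411 times that of wild type (log2 difference -1.27 ± 0.43), or 0.26 times without knockout mice 7 and 8. Without knockout mouse 9 its log2 difference was -0.80. Hp (chr8:109575128-109579172, minus strand) encodes haptoglobin, which binds free haemoglobin. It was the most abundant of the 10 per kilobase of exon, with 7022, 6494, 6276 and 7659 normalized reads in knockout mice, against 9333, 9041, 10236 and 9120 in wild-type mice. Its mean was 0.728 times that of wild type (log2 difference -0.38 ± 0.06).

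Lrg1 (chr17:56119678-56122001, minus strand) encodes a secreted leucine-rich glycoprotein that alters transforming growth factor beta signalling in endothelium. It had 637, 891, 471 and 303 normalized reads in knockout mice 6 to 9, against 1870, 4059, 1440 and 2497 in wild-type mice 1 to 4. The highest knockout library was below the lowest wild-type library, and the mean was 0.233 times that of wild type (log2 difference -1.67 ± 0.31). Lrg1 lies on the chromosome of the targeted gene, 1081968 bases from C3 (chr17:57203970-57228136, minus strand). Within 2 Mb of C3, 48 other genes were tested. In monocytes 8.33% of them were past the threshold, against 3.32% of all genes tested: Khsrp lower, Dennd1c and Gm16712 higher, named after their values were seen, and Lrg1 itself, which was chosen by this contrast. In macrophages 6.25% were, against 5.7% of all genes, and Lrg1 was not among them.

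Wfdc21 (chr11:83746940-83752642, plus strand) encodes a small secreted protein with a whey acidic protein domain. It had 21.6, 42.2, 31.8 and 4.87 normalized reads in knockout mice 6 to 9, against 173, 320, 183 and 227 in wild-type mice 1 to 4. Its mean was 0.111 times that of wild type (log2 difference -2.50 ± 0.34), and 0.0587 times without knockout mice 7 and 8. Wfdc21 was the scarcest member in knockout monocytes per kilobase of exon.

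The protease, surface and citrullination genes differed less than Lcn2, Lrg1 and Wfdc21, and not all in the same direction. Mmp8 (chr9:7558456-7568485, plus strand), the neutrophil collagenase, had 2297, 2953, 1921 and 2707 normalized reads in knockout mice 6 to 9, against 2577, 4361, 3514 and 3211 in wild-type mice 1 to 4. The genotypes overlapped, with a log2 difference of -0.37 ± 0.14. Cd177 (chr7:24743983-24760311, minus strand) encodes a lipid-anchored glycoprotein of the neutrophil surface. It was higher in the knockout, with 4010, 4031, 4704 and 6405 normalized reads in knockout mice, against 2579, 2278, 2686 and 2307 in wild-type mice. Its mean was 1.94 times that of wild type (log2 difference 0.77 ± 0.11) and the genotypes did not overlap. Padi4 (chr4:140745865-140774236, minus strand) encodes the peptidylarginine deiminase that citrullinates histones in neutrophil extracellular traps. It had 914, 977, 848 and 1245 normalized reads in knockout mice, against 683, 773, 703 and 737 in wild-type mice, again without overlap and 1.38 times the wild-type mean (log2 difference 0.35 ± 0.09).

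Retnlg (chr16:48872621-48874496, plus strand), which encodes the secreted resistin-like molecule gamma, showed the widest difference upwards. It had 151, 431, 224 and 283 normalized reads in the monocytes of knockout mice 6 to 9, against 19.8, 6.42, 29.1 and 69.8 in those of wild-type mice 1 to 4. Every knockout library was above every wild-type library, and the mean was 8.71 times that of wild type (log2 difference 2.39 ± 0.38), or 6.94 times without knockout mice 7 and 8.

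In all, 8 of the 10 genes did not overlap between genotypes in monocytes, 3 higher and 5 lower in the knockout, against 11.1% of the 12867 genes tested. Since the members were chosen by this contrast, nothing is read from that share. Without knockout mice 7 and 8, S100a9 joined them and Mmp8 still overlapped. Knockout mouse 7 had the highest value among knockout monocytes for 7 members, and knockout mouse 9 the lowest for 5 (S100a8, S100a9, Lcn2, Lrg1 and Wfdc21) and the highest for Hp, Cd177 and Padi4.

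The windows around the RefSeq starts of 5 members are shown: the calprotectin pair, and Lrg1, Retnlg and Cd177 as genes with non-overlapping genotypes that differed in opposite directions. They come from the table of promoters (GRCm38.p6, 250 bases before the start to 50 bases after it). Capitals mark matches to the C/EBP-like motif TTNNGNAA on either strand. S100a8 (chr3:90668821-90669120, plus strand), S100a9 (chr3:90695672-90695971, minus strand) and Lrg1 (chr17:56121897-56122196, minus strand) had lower means in knockout monocytes, S100a9 with overlap of the genotypes, and Retnlg (chr16:48872358-48872657, plus strand) and Cd177 (chr7:24760262-24760561, minus strand) had higher means.
S100a8: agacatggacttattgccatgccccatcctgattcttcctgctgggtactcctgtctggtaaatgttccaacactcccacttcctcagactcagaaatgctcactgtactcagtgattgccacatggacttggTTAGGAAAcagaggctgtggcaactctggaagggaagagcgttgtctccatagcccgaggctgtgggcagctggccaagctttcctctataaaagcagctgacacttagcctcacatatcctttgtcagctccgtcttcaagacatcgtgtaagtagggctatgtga
S100a9: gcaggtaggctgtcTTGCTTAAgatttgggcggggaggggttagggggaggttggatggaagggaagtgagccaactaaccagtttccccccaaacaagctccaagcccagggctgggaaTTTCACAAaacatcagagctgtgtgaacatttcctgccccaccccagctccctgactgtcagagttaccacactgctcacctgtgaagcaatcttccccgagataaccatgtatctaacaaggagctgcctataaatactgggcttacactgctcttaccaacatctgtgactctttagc
Lrg1: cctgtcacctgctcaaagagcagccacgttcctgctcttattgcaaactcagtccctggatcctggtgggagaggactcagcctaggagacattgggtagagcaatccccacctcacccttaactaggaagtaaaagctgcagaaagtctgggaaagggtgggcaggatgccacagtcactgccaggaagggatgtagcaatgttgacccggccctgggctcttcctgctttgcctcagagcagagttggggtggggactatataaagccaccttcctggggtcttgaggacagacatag
Retnlg: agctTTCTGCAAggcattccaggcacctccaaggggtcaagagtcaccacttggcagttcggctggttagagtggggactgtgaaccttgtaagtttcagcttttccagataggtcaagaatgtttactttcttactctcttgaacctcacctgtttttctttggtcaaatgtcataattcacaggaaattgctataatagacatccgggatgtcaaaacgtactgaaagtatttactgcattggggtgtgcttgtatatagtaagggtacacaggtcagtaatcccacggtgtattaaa
Cd177: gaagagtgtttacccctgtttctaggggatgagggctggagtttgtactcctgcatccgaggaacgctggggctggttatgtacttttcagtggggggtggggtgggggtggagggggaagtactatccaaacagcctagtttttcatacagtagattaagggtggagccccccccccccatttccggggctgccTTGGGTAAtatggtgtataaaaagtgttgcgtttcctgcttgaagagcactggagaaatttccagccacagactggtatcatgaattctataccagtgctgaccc

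Of the 10 members, 8 matched a window in the table. The C/EBP-like motif was found in 6 of these 8, Lcn2, S100a8, S100a9, Cd177, Mmp8 and Retnlg, against 40.7% of all 32851 windows. In S100a8 the match TTAGGAAA began 117 bases before the start, in S100a9 TTGCTTAA and TTTCACAA began 236 and 130 bases before it, in Cd177 TTGGGTAA began 55 bases before it and in Retnlg TTCTGCAA began 246 bases before it. The windows of Lrg1 and Padi4 held no match. The STAT-like motif TTCNNNGAA, the same on both strands, was in 0 of the 8 windows, against 8.3% of all windows, so the motifs did not overlap here. Matches were thus present in genes that were lower and in genes that were higher in knockout monocytes.

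**Figure D3:**
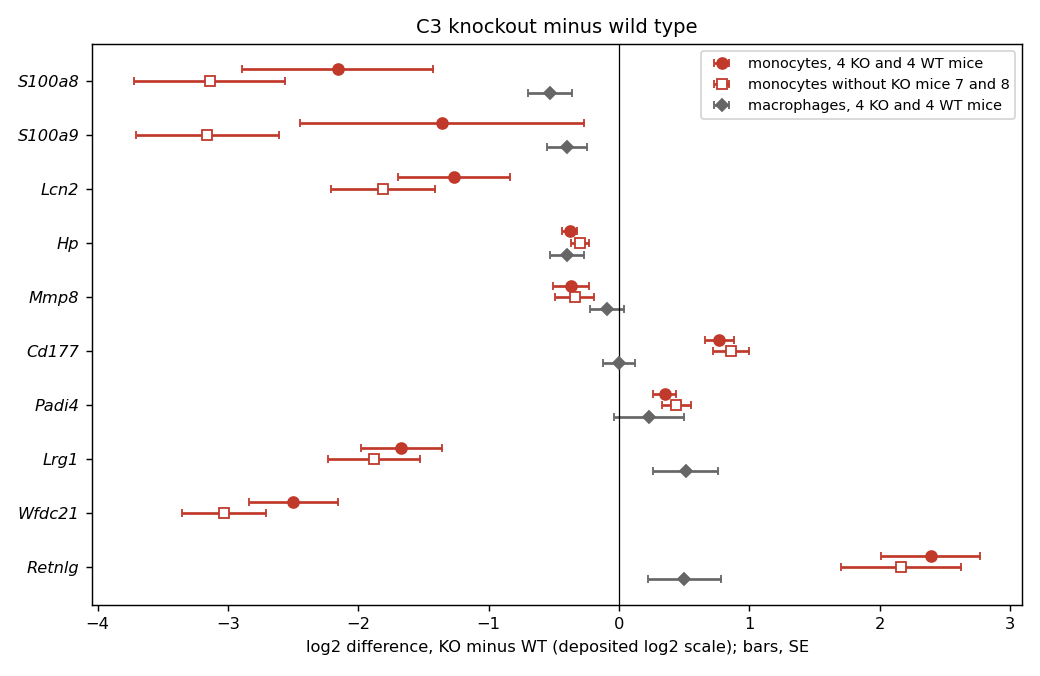
Log2 difference of C3 knockout minus wild type on the deposited scale for the 10 genes, in monocytes with all mice (filled circles), in monocytes without KO mice 7 and 8 (open squares) and in macrophages (diamonds). Bars are SE; Lcn2 and Wfdc21 are not shown in macrophages, where they had 0 and 1 reads over all 8 libraries. S100a8 and S100a9 move to -3.14 and -3.16 without KO mice 7 and 8, while Cd177, Padi4 and Retnlg stay above 0.

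Levels of different genes were compared per kilobase of exon. In knockout monocytes the order of means was Hp, Cd177, Mmp8, S100a9, S100a8, Retnlg, Lrg1, Padi4, Lcn2 and Wfdc21, running from 4273 ± 384 to 57.9 ± 36.6 normalized reads per kilobase (SD, n = 4). In wild-type monocytes it was Hp, S100a8, Lrg1, Mmp8, S100a9, Cd177, Wfdc21, Lcn2, Padi4 and Retnlg, running from 5873 ± 342 to 52.7 ± 46. Retnlg was thus the scarcest in wild-type monocytes and in the middle of the order in knockout monocytes, at 459 ± 201 per kilobase. Neighbours from Mmp8 downwards overlapped in the knockout, where only Hp and Cd177 each stood clear of the gene after it. In wild type the neighbours from S100a8 to Cd177 overlapped in range and the others did not.

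All 10 genes had a higher mean in monocytes than in macrophages in either genotype. The members were chosen as genes of monocytes, so this too is a description. Hp averaged 6863 ± 616 normalized reads in knockout monocytes and 10.7 ± 5.09 in knockout macrophages, and 9432 ± 550 in wild-type monocytes and 30 ± 13.1 in wild-type macrophages. Cd177 averaged 1.58 ± 2.05 normalized reads in knockout macrophages and 1.42 ± 2.26 in wild-type macrophages, so that monocytes were 3038 times and 1736 times as high. These folds rest on 7 and 6 reads over the macrophage libraries, and were 8421 without knockout mouse 6 and 8001 without wild-type mouse 1. Lcn2 had 0 reads in all 8 macrophage libraries, which puts monocytes at least 450-fold higher in the knockout and at least 1052-fold higher in wild type, against a floor of 3 reads over the group. Padi4 had 32.7 times as many normalized reads in monocytes as in macrophages in the knockout and 33.9 times in wild type, with 30.5 ± 18.9 in knockout macrophages and 21.4 ± 15.2 in wild-type macrophages. Lrg1 had 24.3 times as many in the knockout and 201 times in wild type, or 673 times without the macrophages of wild-type mouse 1. Retnlg had 17 times as many in the knockout and 4.94 times in wild type, or 2.92 times without the monocytes of wild-type mouse 4. Retnlg alone overlapped between cell types: wild-type monocytes, at 6.42 to 69.8 normalized reads, overlapped wild-type macrophages, at 2.24 to 11.8, whereas knockout monocytes did not overlap knockout macrophages, at 2.76 to 28.4.

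In macrophages, whose genotype contrast was not named in the choice of the members, no member passed the test. Of the 9 members that passed the filter on low values, Lcn2 had 0 reads, so 8 could carry a difference, and limma called 0 at an adjusted p under 0.05, with 3 at an unadjusted p under 0.05. Over all genes tested, 2.57% were called higher and 3.13% lower, 323 and 394 genes, against 251 and 520 with limma-voom. Several of the 9 passed the filter through their level in monocytes, since the deposited scale draws low values towards the mean of all libraries. The same holds for their differences: that of S100a9 was -0.40 on this scale and -2.56 with limma-voom. Only 1 of the 10 members, S100a9, did not overlap between genotypes in macrophages, against 13.1% of all genes tested. It had 0, 0, 1.06 and 0.886 normalized reads in the macrophages of knockout mice 6 to 9, against 6.65, 4.49, 3.69 and 2.54 in those of wild-type mice 1 to 4 (log2 difference -0.40 ± 0.15, limma adjusted p = 0.149).

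S100a8 in macrophages had 0.92, 8.19, 2.12 and 0 normalized reads in knockout mice, against 10.5, 16.8, 6.46 and 11.8 in wild-type mice (log2 difference -0.53 ± 0.17, limma adjusted p = 0.0928). Hp had 10.1, 18, 7.41 and 7.09 in knockout mice, against 27.6, 44.9, 34.2 and 13.5 in wild-type mice (-0.40 ± 0.13, limma adjusted p = 0.105). These are the same 3 genes that reached an unadjusted p under 0.05, all lower in the knockout, and none had more than 44.9 normalized reads in any macrophage library. Limma-voom on the recovered reads called S100a9 alone (adjusted p = 0.0319; range over 13 alternatives 0.0319 to 0.873). Hp passed in 3 of 13 alternatives, among them the authors' deposited table (adjusted p = 1.24e-05; range 1.24e-05 to 0.257).

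Lrg1, lower in knockout monocytes, had a higher mean in knockout than in wild-type macrophages. It had 31.3, 26.2, 16.9 and 20.4 normalized reads in knockout mice 6 to 9, against 38, 5.61, 3.69 and 1.69 in wild-type mice 1 to 4 (log2 difference 0.51 ± 0.25, limma adjusted p = 0.298). The groups overlapped only through wild-type mouse 1, and Lrg1 passed without that library (adjusted p = 0.0111; range over 13 alternatives 0.0111 to 0.58). Retnlg in macrophages averaged 16 ± 11.2 in the knockout and 6.32 ± 4.06 in wild type (log2 difference 0.50 ± 0.28, SD with n = 4, limma adjusted p = 0.36). The knockout effect in monocytes minus that in macrophages was -2.45 ± 0.38 for Wfdc21, -2.17 ± 0.44 for Lrg1, -1.63 ± 0.76 for S100a8, 0.77 ± 0.16 for Cd177 and 1.89 ± 0.51 for Retnlg (log2, SE), given with no test since the monocyte part chose the members.

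Among monocyte libraries of the same genotype, S100a9 and Wfdc21 varied with S100a8. Deviations from the genotype mean were correlated over the 8 monocyte libraries, each gene with S100a8 (9 relations) and with Ly6g (10 relations), with exact permutation within genotype, two-sided, adjusted over the 19 relations. For Wfdc21 with S100a8, Pearson's r was 0.98 and Spearman's rho 0.95 (exact permutation p = 0.00174 for each, the smallest they can give; adjusted p = 0.0165 and 0.033). For S100a9 with S100a8, r was 0.95 (exact permutation p = 0.00174, adjusted p = 0.0165) and rho 0.86 (exact permutation p = 0.00347, adjusted p = 0.033). Leaving out the 2 libraries farthest from the median of S100a8, r was 0.96 for Wfdc21 and 0.76 for S100a9. Without knockout mice 7 and 8, over 6 libraries, r was 0.96 for both genes (exact permutation p = 0.0417 for S100a9 and 0.0208 for Wfdc21, adjusted p = 0.297 for each) and rho was 1.00 for both (exact permutation p = 0.0417, adjusted p = 0.396 for each). S100a9 deviated by -0.8, 2.27, 1.32 and -2.79 from the knockout mean in mice 6 to 9 on the log2 scale, where Ltf deviated by -2.83, 3.32, 2.26 and -2.76 and Ngp by -3.91, 4.34, 3.94 and -4.37, and their part in the relation was not tested. Leaving out any 1 of the 8 libraries left 0 relations past the adjustment, and so did leaving out knockout mice 7 and 8, but permutations can then give no p below 0.00694 and 0.0208, so these repeats say little about stability.

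No other member passed the adjustment. Lrg1 had r = 0.75 and rho = 0.79 with S100a8 (exact permutation p = 0.0122 and 0.0208, adjusted p = 0.077 and 0.099). Lcn2 had r = 0.96 and rho = 0.69 (exact permutation p = 0.0347 and 0.127, adjusted p = 0.139 and 0.344), and its r was 0.45 without the 2 farthest libraries. Hp went the other way, with r = -0.80 and rho = -0.86 (exact permutation p = 0.0365 and 0.0139, adjusted p = 0.139 and 0.088), as did Cd177 with r = -0.90 and rho = -0.74 (exact permutation p = 0.0556 and 0.066, adjusted p = 0.176 and 0.251). Padi4 had r = -0.71 and rho = -0.31 (exact permutation p = 0.295 and 0.557, adjusted p = 0.623 and 0.792). Mmp8 and Retnlg had r = 0.05 and -0.00 and rho = 0.24 and -0.07 (exact permutation p from 0.583 to 0.997, adjusted p from 0.792 to 0.997). With Ly6g, r ran from -0.60 for Mmp8 to 0.07 for Hp over the 10 members, and none passed (smallest exact permutation p = 0.156, adjusted p = 0.408). With 0 to 3 reads a library, Ly6g could show little variation at this depth.

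**Figure D4:**
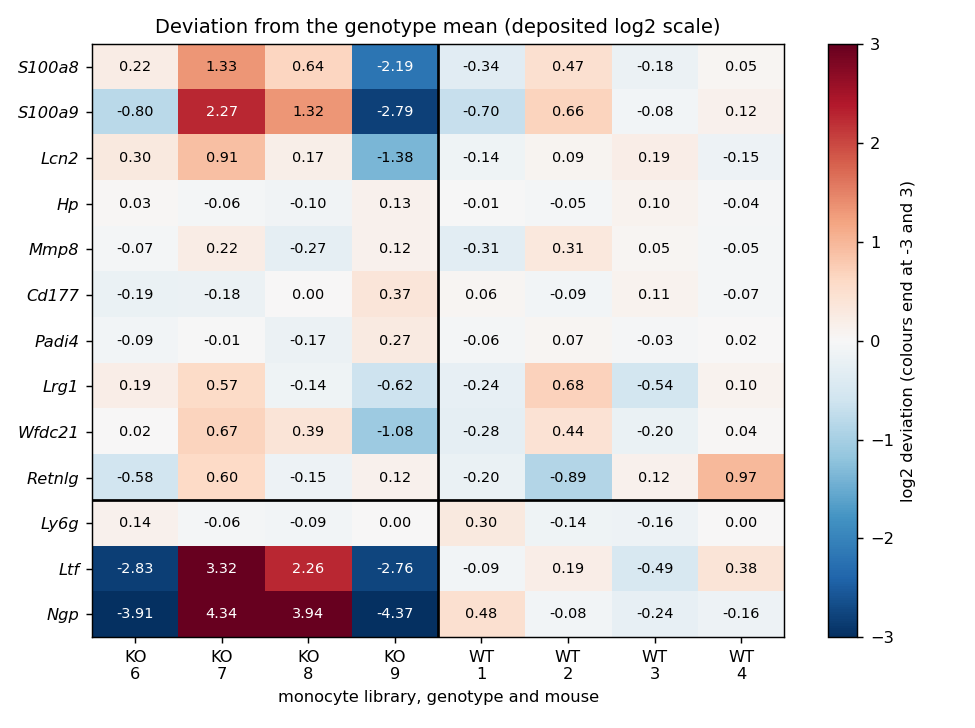
Deviation of each monocyte library from its genotype mean on the deposited log2 scale, for the 10 genes and, below the line, Ly6g, Ltf and Ngp. Columns are KO mice 6 to 9, left, and WT mice 1 to 4. S100a8, S100a9, Lcn2, Lrg1 and Wfdc21 are all lowest in KO mouse 9 and highest in KO mouse 7 among KO mice, and Ly6g deviates by at most 0.30.

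The spread that carried these relations came mostly from the knockout. On the deposited log2 scale, S100a8 had an SD of 1.53 among knockout and 0.36 among wild-type monocyte libraries, S100a9 of 2.26 and 0.56, and Lcn2 of 0.98 and 0.17 (n = 4 each). The wild-type order was similar for some genes: wild-type mouse 2 had the highest S100a8, S100a9, Mmp8, Padi4, Lrg1 and Wfdc21 of the wild-type libraries, and wild-type mouse 1 the lowest S100a8, S100a9, Mmp8, Padi4 and Wfdc21. In the knockout, Mmp8 was likewise highest in mouse 7 but lowest in mouse 8, and Padi4 was highest in mouse 9, where S100a8 was lowest.

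Over all 16 libraries, the tested genes whose deposited values were most like those of S100a8 were Bnip3l, Cry1 and Cd101 (Pearson's r 0.986, 0.985 and 0.984 among 11716 other genes with a symbol). Lrg1 was most like Cd244a, Dgat2 and Stx5a (0.985, 0.982 and 0.981), Wfdc21 like Dgat2, Tex2 and S100a8 itself (0.977, 0.974 and 0.973), and Retnlg like Armc7, Slc7a6os and Puf60 (0.920, 0.916 and 0.911). These correlations describe levels over groups that share the difference between cell types, and no test goes with them. Dgat2, an enzyme of triglyceride synthesis, averaged 1707 normalized reads in knockout monocytes and 5396 in wild-type monocytes, against 312 in knockout macrophages and 283 in wild-type macrophages.

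Other genes of neutrophils were read from 5 fixed lists, which held 36 genes, 32 of them in the matrix. In monocytes 20 passed the filter on low values, of which 1 was called higher and 3 lower in the knockout, against 1.4% higher and 1.92% lower over all genes tested. The median log2 difference of the 20 was -0.10, against -0.01 over all genes. In macrophages 17 passed the filter, of which 2 were called higher and 0 lower, against 2.57% higher and 3.13% lower over all genes tested. Some of the 17, such as Prtn3 and Pglyrp1, were at a few reads in macrophages and passed through their level in monocytes. Between cell types 15 of 18 were higher and 1 lower in knockout monocytes than in knockout macrophages, where 29.6% of all genes tested were higher and 31% lower. In wild type 17 of 19 were higher and 1 lower in monocytes, where 31.7% of all genes tested were higher and 31.7% lower. With limma-voom the wild-type calls over all genes divided into 3143 higher and 4959 lower in place of 4044 and 4050. Several list genes, such as Prtn3, Pglyrp1 and Cxcr2 in either genotype and Elane in wild type, passed the filter through their level in monocytes. Such genes could hardly come out lower there, so nothing is read from these counts beside the shares over all genes.

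Prtn3, which encodes proteinase 3 of the primary granules, fell to 213, 219, 118 and 150 normalized reads in knockout mice 6 to 9, against 378, 443, 426 and 395 in wild-type mice 1 to 4 (log2 difference -0.99 ± 0.15, limma adjusted p = 0.00268). It was 1 of 2 primary granule genes that passed the filter. Pglyrp1, a peptidoglycan recognition protein of secondary granules, rose to 734, 660, 583 and 583 normalized reads in knockout mice, against 214, 266, 397 and 344 in wild-type mice (0.87 ± 0.14, limma adjusted p = 0.00507). Without knockout mice 7 and 8 the log2 difference of Pglyrp1 was 0.91 and its adjusted p 0.0523. Of the 5 tertiary granule genes tested, 0 were called, with 0 at an unadjusted p under 0.05. Itgb2, the integrin beta 2 chain, had the most normalized reads of them, 37777 ± 5569 in knockout monocytes and 41865 ± 2715 in wild-type monocytes (SD, n = 4 each; log2 difference -0.12, limma adjusted p = 0.51). Of 5 further neutrophil genes tested, 0 were called, with 1 at an unadjusted p under 0.05, and Anxa1, which encodes annexin A1 and had the most normalized reads, had a log2 difference of -0.05 (limma adjusted p = 0.657).

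Of the surface and signalling genes, Fpr1, a receptor for formylated bacterial peptides, averaged 869 ± 260 normalized reads in knockout monocytes and 1635 ± 238 in wild-type monocytes (SD, n = 4 each; log2 difference -0.71 ± 0.16, limma adjusted p = 0.0435). Il1r2, the decoy receptor of interleukin-1, averaged 1414 ± 460 in knockout monocytes and 3800 ± 1403 in wild-type monocytes (-1.07 ± 0.23, limma adjusted p = 0.045). Both monocyte calls were lost in 9 of 13 alternatives (adjusted p up to 0.115 for Fpr1 and 0.114 for Il1r2), among them median-centred values (0.0512 for each). Fpr1 was lost without any 1 of knockout mice 6 and 8 and wild-type mice 1 to 4 (0.0591 to 0.115), and Il1r2 without any 1 of knockout mice 6, 8 and 9 and wild-type mice 2 to 4 (0.0737 to 0.114) and without knockout mice 7 and 8 together (0.0665). In macrophages Il1r2 rose to 825, 1031, 833 and 777 normalized reads in knockout mice 6 to 9, against 244, 409, 205 and 188 in wild-type mice 1 to 4 (1.16 ± 0.14, limma adjusted p = 0.000998). Ltb4r1, a leukotriene B4 receptor, rose there as well, to 324 ± 83.6 in the knockout, against 128 ± 20.3 in wild type (SD, n = 4 each; 0.77 ± 0.11, limma adjusted p = 0.00124). Neither macrophage call was lost in any of 12 alternatives. Csf3r, the receptor of granulocyte colony-stimulating factor, had the most normalized reads of this list in monocytes and had a log2 difference of 0.12 in monocytes (limma adjusted p = 0.491).

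The difference between the knockout effects of the cell types passed for 1 of the 20 neutrophil list genes tested, Il1r2 (log2 difference -2.23 ± 0.30, limma adjusted p = 0.0031), against 0.259% higher and 0.358% lower over all 13134 genes tested. With the mouse as a replicate block, 251 genes were called in this comparison in place of 81, and Il1r2 stayed called in all 22 alternatives (adjusted p from 7.12e-05 to 0.00975).

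**Figure D5:**
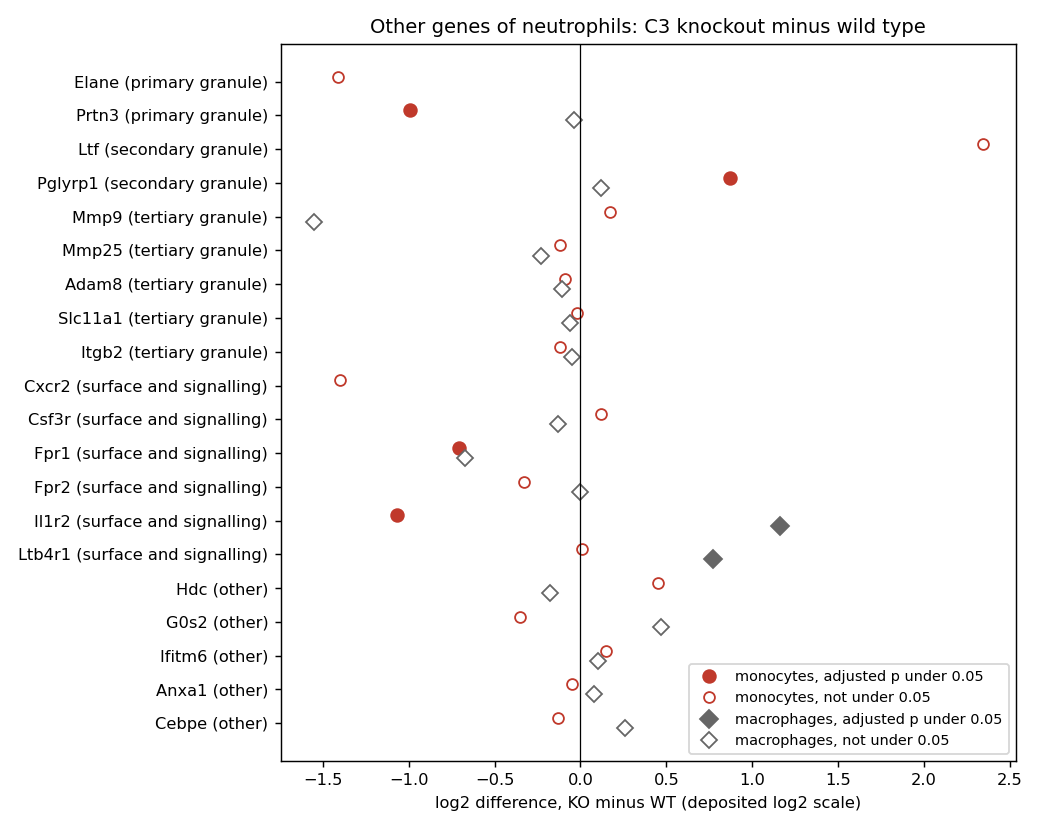
Log2 difference of C3 knockout minus wild type for the other neutrophil genes that passed the filter, in monocytes (circles) and macrophages (diamonds). Filled symbols have a limma adjusted p under 0.05: Prtn3, Fpr1 and Il1r2 lower and Pglyrp1 higher in KO monocytes, and Il1r2 and Ltb4r1 higher in KO macrophages. Ltf, at 2.34, rests on KO mice 7 and 8.

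Relatives of the members and acute-phase genes were read from 6 further lists. Of 11 acute-phase and STAT3-linked genes tested in monocytes, 1 rose and 1 fell. Saa3, serum amyloid A3, fell to 168 ± 44.2 normalized reads in the knockout, against 573 ± 251 in wild type (SD, n = 4 each; -1.28 ± 0.21, limma adjusted p = 0.00682), and was lost where 1 model held both cell types (adjusted p = 0.123, against a lowest of 0.00184 over 13 alternatives). Il1rn, the interleukin-1 receptor antagonist, rose to 16118 ± 2918, against 9923 ± 2036 (0.52 ± 0.11, limma adjusted p = 0.0332), and was lost in 8 of 13 alternatives, among them those without knockout mouse 8 or 9 or wild-type mouse 2, 3 or 4 (adjusted p up to 0.141). The median log2 difference of the 11 was 0.09, against -0.01 over all genes tested. Junb, a transcription factor with the most normalized reads of the list, had a log2 difference of -0.22 (limma adjusted p = 0.233). In macrophages 0 of 10 were called, with 1 at an unadjusted p under 0.05.

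None of the 6 other S100 genes tested was called by limma between genotypes in either cell type, with 1 at an unadjusted p under 0.05 in monocytes and 0 in macrophages. S100a6, with the most normalized reads, averaged 13003 normalized reads in knockout monocytes and 13622 in wild-type monocytes (log2 difference -0.06, limma adjusted p = 0.767). Padi2, a relative of Padi4, rose to 1543 ± 240 in knockout monocytes, against 927 ± 242 in wild-type monocytes (SD, n = 4 each; 0.54 ± 0.13, limma adjusted p = 0.0476), a call lost in 8 of 13 alternatives, among them those without any 1 of knockout mice 7 to 9 or wild-type mouse 1, 2 or 4 (adjusted p up to 0.19). Retnla, a relative of Retnlg and the only other resistin-family gene that passed the filter, had 9.39, 9.64, 511 and 65 normalized reads in knockout monocytes of mice 6 to 9, against 0, 1.28, 0 and 3.27 in those of wild-type mice 1 to 4. No wild-type library reached any knockout library, yet Retnla did not pass (log2 difference 2.30, limma adjusted p = 0.208). Of 3 other genes with a whey acidic protein domain 0 were called, with 2 at an unadjusted p under 0.05, and Slpi, a secreted inhibitor of serine proteases with the most normalized reads in wild-type monocytes, averaged 5007 ± 1153 in the knockout and 6964 ± 1787 in wild type (SD, n = 4 each) and did not pass (limma adjusted p = 0.326). Of 2 calprotectin receptors tested 0 were called, with 1 at an unadjusted p under 0.05, and Bsg, with the most normalized reads, had a log2 difference of -0.26 (limma adjusted p = 0.0638).

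Marker lists of other cells and of monocyte states were summed beside these results. The 10 DC-like monocyte markers, among them genes of antigen presentation by MHC class II, summed to 464392 to 811394 normalized reads in knockout monocytes, against 63004 to 105334 in wild-type monocytes, with no overlap. This rise was shared by macrophages, where the sum was 1285191 to 1580530 in the knockout and 503365 to 613312 in wild type. The 8 neutrophil-like monocyte markers, of which Mmp8 and Cd177 are members here, summed to 34111 to 44367 in the knockout, against 38884 to 79586 in wild type. The 6 dendritic cell markers summed to 463 to 1178 in the knockout, against 134 to 458 in wild type, and overlapped in macrophages (102 to 144 against 62.8 to 138). Of these markers, Cd209a, also among the DC-like monocyte markers, had 128, 147, 621 and 790 in monocytes of knockout mice 6 to 9. It had 2.57 to 15 in wild-type monocytes, and without it the dendritic cell sums of the genotypes overlapped. The 4 red blood cell markers in the matrix summed to 309 to 1274 in the knockout, against 1430 to 3569 in wild type. They were lower without overlap in knockout macrophages too, at 145 to 242 against 428 to 1272. Fibroblast and sarcoma markers summed to 1401 to 6452 in the knockout, against 3643 to 7857 in wild type, and lymphocyte markers to 40.6 to 89.2, against 30.8 to 85.5. The 3 markers of basophils, mast cells and eosinophils in the matrix summed to at most 9.75 in knockout monocytes and had 0 reads in wild-type monocytes. Sums of the DC-like monocyte and red blood cell markers, like that of the 7 neutrophil markers other than Ltf, Camp and Ngp, did not overlap between the genotypes in monocytes. The dendritic cell sums were apart only by 463 against 458. The part of all these sums in the members' differences was not tested.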

How the data were processed

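RNA of sorted monocytes and macrophages was sequenced after SMART-Seq v4 amplification of 5 ng, which does not mark strand. The submitters' processing notes name GRCm38 as the build, STAR 2.7.2b, bcl2fastq 2.19.0.316 and DESeq2 without a version; which annotation was counted is not given in the sources used here. Values in the authors' matrix are log2 values whose transform no header names, and they followed a regularized logarithm. The deposited tables of wild type against knockout give, per the file headers, a base mean (a signal, reads divided by size factors, averaged over all libraries by the authors), log2 fold changes, a Wald score and, from the authors, p-values and adjusted p-values, with 14087 adjusted values. The authors' fold changes were turned to knockout minus wild type. Every matrix column matched a sample.

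The regularized logarithm was undone to obtain reads. Over 20443 genes whose base mean was 1 or more, 73.4% of values came within 0.05 of a whole number (99.5% at base means of 1 to 10, 21.3% above 1000). Gene means were within 1% of the base mean for 99.9% of genes. Reads were solved from that base mean, so the match was fixed beforehand and is no check. For 12 genes, Ltf, Camp and Ngp among them, the mean solved without the base mean differed from it by over 5%, so their high values are approximate. The solved mean was 154.5 against a base mean of 99.61 for Ltf, 106.5 against 35.65 for Camp and 456.4 against 127.5 for Ngp. Counting error grows as reads fall, and replicate mice set the error of every mean.

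The design assumed linear values or counts; the files held log2 values, so limma 3.58.1 (R 4.3.3) was fitted to them with trend and robust estimation, per comparison, to genes whose linear value reached 10 in at least 4 libraries, with Benjamini-Hochberg adjustment and a threshold of 0.05. Scripts were tested on simulated data. Covariation used exact permutations (576). Named genes were the members, Ly6g, C3 and, of each list, genes called between genotypes and its most abundant gene. The members and lists were chosen with earlier results of these data known. Mouse numbers pair both cell types of an animal per the labels' titles; deviations from group means correlated by 0.052, 0.084, 0.211 and 0.083 in knockout mice 6 to 9 and by 0.417, 0.107, 0.031 and 0.207 in wild-type mice 1 to 4. Spearman correlations between libraries of a group were 0.9971 to 0.9984, so that no pair of libraries was identical. Alternatives were filters, centring, 1 fit of all libraries, left-out libraries, the mouse as a block, limma-voom and the authors' tables.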

Additional observations from a re-analysis of the deposited data

Results flagged for a closer look

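Il1r2, the decoy receptor of interleukin-1, differed between cell types in its response to the knockout: the knockout effect in monocytes minus that in macrophages was -2.23 on the log2 scale (limma interaction, adjusted p = 0.0031). It averaged 1414 ± 460 normalized reads in knockout monocytes and 3800 ± 1403 in wild-type monocytes, and 867 ± 112 in knockout macrophages and 262 ± 101 in wild-type macrophages (SD, n = 4 each). All 4 knockout monocyte libraries lay below all wild-type ones, and all 4 knockout macrophage libraries above all wild-type ones. Of 56 groups of 4 libraries examined for 1 sample far from the others (14 genes, among them the 10 members), 0 held such a sample, where chance gives about 1 in 20. This rule cannot flag 2 libraries that stand apart together. Knockout mice 7 and 8, with 4220 and 3074 Ngp reads against 1.88 and 0 in mice 6 and 9 (normalized), therefore went unflagged. Groups with 0 reads, such as Lcn2 in macrophages, were counted as well, so nothing is concluded from the 0.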

How the results depend on the processing

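The knockout called 427 genes in monocytes, against 981 with all 16 libraries in 1 fit, 1329 in the authors' deposited table, 254 without the monocyte libraries of knockout mice 7 and 8 (chosen after seeing the data) and 237 to 459 without 1 library; fewer samples enter the last fits, and for the others the cause was not tested. In macrophages 717 were called, against 458 to 656 without 1 library; limma-voom, added later, divided its 771 calls into 251 higher and 520 lower, in place of 323 and 394. The difference of effects called 81 genes, against 251 with the mouse as a replicate block, 139 with the mouse as a random effect and 48 to 125 without 1 library. Covariation passed for 2 of 19 relations, against 0 without any 1 library or without knockout mice 7 and 8. Between cell types 8094 genes were called in wild type and 7732 in the knockout, with 8399 and 7773 under the replicate block, which moved no other count by over 1.5 times. In the wild-type comparison of cell types the median of all genes was -0.12 with limma-voom, against 0.01.

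Of 716 values of members under alternatives, 673 were counted as unchanged, 24 moved, 5 became called and 14 changed sign. In the knockout comparison of macrophages, unchanged means the same sign and side of the threshold, whatever the size. In the other comparisons it means the same sign and a shift under the larger group SD. Unchanged values can thus differ in size: S100a8 in macrophages went from -0.53 to -2.54 with limma-voom. Cd177 in macrophages (-0.00) became 0.31 with limma-voom, 0.16 in the authors' deposited table and -0.06 to 0.06 without 1 library. The difference of effects of Hp (0.02) ran from -0.07 to 0.13 without 1 library. That of Padi4 (0.12) ran from -0.09 to 0.29 without 1 library and was -0.04 with limma-voom, and that of S100a9 (-0.96) was 0.22 with limma-voom. For all of these the cause was not tested. No member changed sign in the knockout comparison of monocytes. The edgeR and DESeq2 fits planned on recovered reads were not run; limma-voom on those reads took their place. Depth limits statements on Ly6g and on members in macrophages, whose group means were at most 30.5 normalized reads.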

Other observations

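The values of a pair of genes read beside the members are given here; both were chosen after their values were seen, and their order over mice was not tested. Retnla, which encodes a resistin-like protein of alternatively activated macrophages, was highest in knockout mouse 8 and next in knockout mouse 9 in both cell types, with 511 and 65 normalized reads in monocytes and 136 and 36.3 in macrophages. Mmp9, the gelatinase of tertiary granules, had 228, 2839, 1171 and 638 normalized reads in the monocytes of knockout mice 6 to 9, against 724, 524, 953 and 799 in those of wild-type mice 1 to 4, with its highest values in the libraries with high Ltf, Camp and Ngp. In macrophages Mmp9 had 145, 709, 51.9 and 130 in knockout mice, against 972, 1556, 432 and 775 in wild-type mice, a log2 difference of -1.55 that did not pass (limma adjusted p = 0.179). Knockout mouse 7 was the highest knockout mouse for Mmp9 in both cell types, while knockout mice 6 and 8 and every wild-type mouse changed place in the order.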
